A study of Mus musculus with 2 samples.

Results

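The genes described here encode BAF subunits that are exchanged between neural progenitors and neurons, together with the ATPases of the complex. They were chosen by symbol from a written list of 10 genes, and all 10 were found among the 43346 annotated genes of the deposited tables. The series measured total RNA longer than 200 nucleotides from the hindbrain of mouse embryos (strain B6NCrl, no mutation or treatment named in the labels) at 10.5 days of development. It held 1 group of 2 libraries, made from mixed-sex pools of 69 embryos (replicate 1) and 51 embryos (replicate 2). Each library started from 10 ng of RNA with synthetic spike-in RNAs added, and a single donor ID is listed for both pools. Since nothing else says how the pools were collected, the spread between them describes these 2 pools only, and no condition could be compared.

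BAF complexes, also called SWI/SNF complexes, use the energy of ATP to move nucleosomes and so open or close chromatin. The ATPase is either Smarca4 (BRG1) or Smarca2 (BRM), and most other positions can be filled by one of several related subunits. In the developing nervous system, dividing progenitors use the actin-related protein Actl6a, the PHD finger protein Phf10 and the protein Ss18. Dpf2, a PHD finger protein of many tissues, is grouped with them here. As neurons leave the cell cycle, Actl6a, Phf10 and Ss18 give way to Actl6b, to Dpf1 and Dpf3, and to Ss18l1. The repressor Rest and the microRNAs miR-9 and miR-124 are known regulators of this exchange.

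The libraries held 38170078 counts (replicate 1) and 36382223 counts (replicate 2) in annotated genes. Levels are given as TPM, the abundance of a transcript after division by its length, scaled to a fixed total per library. A gene was taken as detected where each library reached 1 TPM, and 14291 genes were, with medians of 16.36 and 17.09 TPM. The tissue label was met by hindbrain position genes, of which 6 of 7 were detected, the exception being Egr2 (0.45 and 1.72 TPM). All 12 neural progenitor markers and all 14 neuron markers were detected. Markers of muscle and heart summed to 11.96 TPM (replicate 1) and 34.7 TPM (replicate 2), with Nppa at 0 in replicate 2. Other tissue gave higher sums in replicates 1 and 2. Red blood cell markers summed to 14361 and 16238 TPM, mesenchyme markers to 681 and 583 TPM, and endothelium markers to 116 and 141 TPM. The part of such other tissue in the results below was not tested.

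All 10 subunit genes were detected, and all but Dpf3 also passed a TPM of 5 in both libraries. Progenitor subunits took 3 of the 4 highest places, and the neuronal subunits were spread over the lower 6. Actl6a was the highest at 213 ± 23.6 TPM (SD, n = 2), followed by Dpf2 at 169 ± 5.57 TPM, Smarca4 at 134 ± 6.51 TPM and Ss18 at 87.6 ± 20.0 TPM. These 4 genes stood apart from each other and from the rest, since both libraries of each lay above both libraries of the next. Dpf1 (35.5 ± 17.1 TPM), Smarca2 (26.6 ± 3.49 TPM), Phf10 (23.8 ± 5.64 TPM) and Actl6b (22.3 ± 20.3 TPM) overlapped in their libraries and have no settled order. Ss18l1 at 10.1 ± 2.33 TPM overlapped with Actl6b but lay above Dpf3, the lowest of the 10 at 6.43 ± 2.73 TPM. Among all annotated genes, Actl6a ranked 791st and 719th by TPM in the 2 libraries and Dpf3 ranked 9425th and 11142nd.

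**Figure D1:**
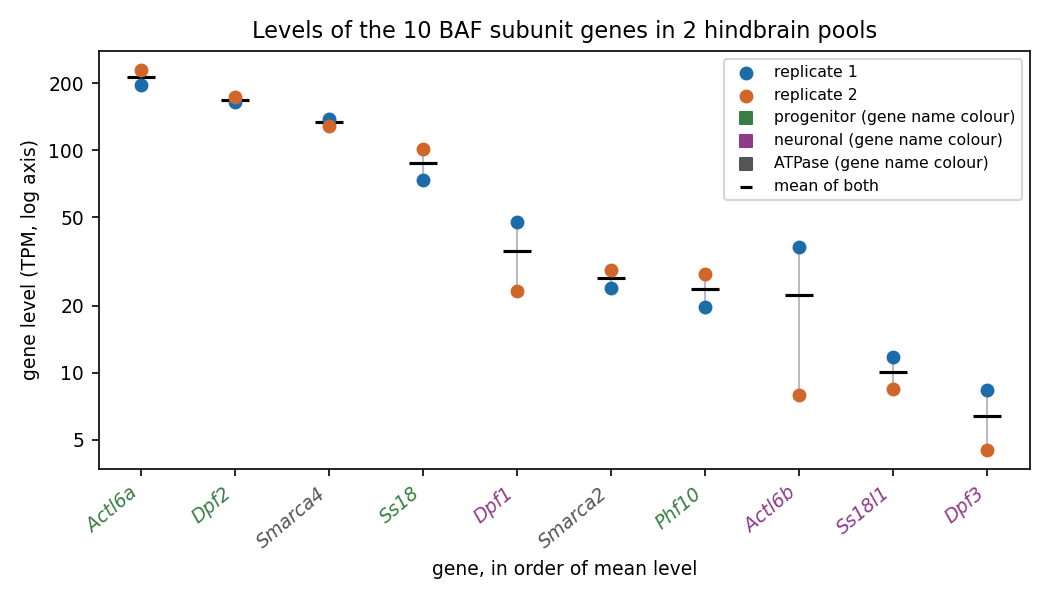
Level of each of the 10 BAF subunit genes in TPM on a log axis, with 1 point per library, a bar at the mean of both and gene names coloured by role. Actl6a, Dpf2, Smarca4 and Ss18 sit above all other members in both libraries, and the points of Actl6b lie farthest apart, at 36.64 and 7.93 TPM.

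The ratio of paralogs differed most between the pools at the actin-related position, among the 7 ratios computed. Actl6a (chromosome 3, 32706298 to 32726973, mm10) and Actl6b (chromosome 5, 137553517 to 137569582, mm10) encode interchangeable subunits that bind the ATPase. Actl6a was at 196.74 TPM (replicate 1) and 230.16 TPM (replicate 2). Actl6b was at 36.64 TPM (replicate 1) and 7.93 TPM (replicate 2), from 1227 and 253 counts. Replicate 1 was the higher library for Actl6b and the lower one for Actl6a, so that Actl6a exceeded its paralog 5.37-fold in replicate 1 and 29.0-fold in replicate 2. On the log2 scale, with 0.1 TPM added to each gene, Actl6b over Actl6a was -2.42 and -4.84, with a mean of -3.63 ± 1.71 (SD, n = 2). The neuronal paralog thus held 15.7% of the summed TPM of this position in replicate 1 and 3.33% in replicate 2. The intervals deposited with the TPM values of Actl6b, 34.1 to 39.2 and 7.25 to 9.84 TPM, did not overlap, although the level of these intervals is not stated.

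Actl6a is a known target of miR-9-3p (also written miR-9*), and a match to its seed is shown because this microRNA is known to repress the progenitor subunit in neurons. The microRNA is given with its seed, bases 2 to 8, in capitals (from RefSeq). The stretch of the 3′ UTR of the transcript Actl6a-201 is given with the letters complementary to the seed in capitals, at chr3:32726626-32726654 on the plus strand of mm10 (GENCODE M21).
mmu-miR-9-3p: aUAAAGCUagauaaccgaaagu
Actl6a-201 site: acctcaacgtctgtAGCTTTAgtacactc
The match begins at base 38 of the 371 bases of this UTR and was the only one there. The same letters, AGCTTTA, were found on the transcript strand in 2.82% of 15656 3′ UTRs when each was read over its first 371 bases. A match is a description of the sequence only. The microRNA itself was outside the measurement, since the labels give a size range over 200 nucleotides.

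At the PHD finger position, Dpf2 supplied most of the RNA. The neuronal paralogs together exceeded Phf10 in replicate 1, with 23.2% against 8.24% of the summed TPM, and matched it in replicate 2, with 12.2% each. PHD fingers read modified histone tails. Dpf2 was at 165.05 and 172.93 TPM in replicates 1 and 2, the smallest relative difference between pools among the progenitor subunits. Phf10, which belongs to the PBAF form of the complex, was at 19.83 and 27.80 TPM. Dpf1 was at 47.52 and 23.40 TPM, and Dpf3 at 8.36 and 4.50 TPM. Both neuronal genes were higher in replicate 1 and both progenitor genes higher in replicate 2. Of the summed TPM of the 4 genes, Dpf2 held 68.6% and 75.6%, Phf10 8.24% and 12.2%, Dpf1 19.7% and 10.2%, and Dpf3 3.47% and 1.97%.

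By gene TPM, the ratio of Dpf1 to Phf10 changed its direction between the pools. On the log2 scale it was 1.26 in replicate 1 and -0.25 in replicate 2, with a mean of 0.50 ± 1.06 (SD, n = 2). Neither gene was thus the higher one in both libraries over all transcripts. Over protein-coding transcripts only, Dpf1 was the higher one in both, at 43.83 and 21.84 TPM against 11.73 and 12.98 TPM for Phf10. That sum includes short and incomplete transcripts of Dpf1. Over complete coding sequences, a limit chosen after the values had been seen, Dpf1 was at 26.11 and 14.63 TPM, close to Phf10 in replicate 2. By counts, Dpf1 was higher in replicate 1 (1684 against 969) and lower in replicate 2 (841 against 1098). Dpf1 remained below Dpf2 in both libraries, by 3.47-fold and 7.39-fold in gene TPM. Dpf3 was below Phf10 by 2.37-fold and 6.18-fold and below Dpf2 by 19.7-fold and 38.4-fold. In each of these pairs the neuronal gene had the lower relative level in replicate 2.

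At the third position, Ss18 was at 73.53 and 101.75 TPM and its neuronal paralog Ss18l1 at 11.76 and 8.47 TPM. Ss18 is the subunit that is fused to an SSX protein in synovial sarcoma, and Ss18l1 (CREST) is a calcium-responsive coactivator needed for dendrite growth. Ss18 was 6.25-fold higher than Ss18l1 in replicate 1 and 12.01-fold higher in replicate 2, and the neuronal share of the pair was 13.8% and 7.68%. Both libraries of Ss18 lay far above both libraries of Ss18l1.

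Among the ATPases, Smarca4 was at 138.33 and 129.13 TPM and Smarca2 at 24.15 and 29.09 TPM. By gene TPM the BRG1 gene exceeded the BRM gene 5.73-fold in replicate 1 and 4.44-fold in replicate 2, with a log2 ratio of Smarca2 over Smarca4 of -2.33 ± 0.26 (SD, n = 2). This pair had the smallest spread of the 7 ratios computed, but its size depended strongly on which transcripts were counted, as given with the transcript values.

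**Figure D2:**
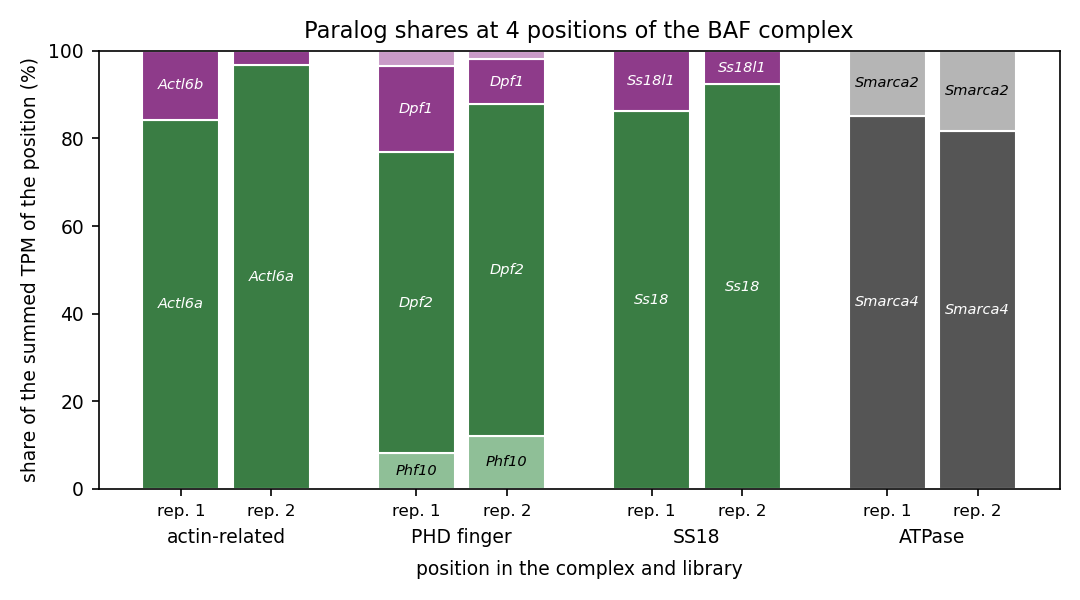
Share of the summed TPM (%) held by each paralog at 4 positions of the complex, with 1 stacked bar per library, progenitor subunits in green, neuronal subunits in purple and ATPases in grey. The neuronal share is larger in replicate 1 at the first 3 positions: 15.7% against 3.33%, 23.2% against 12.2%, and 13.8% against 7.68%.

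The direct ratio between the pools placed the members by role. This ratio was the log2 of CPM (counts scaled to library size) in replicate 2 over replicate 1, scaled by TMM (a factor that centres the bulk of genes), with a prior count of 2. Its 95% exact interval covers counting error only, since there was 1 library on each side and no test was possible. All 4 neuronal subunits were lower in replicate 2, with a median of -0.95. All 4 progenitor subunits were higher, with a median of 0.23. Over all 14385 genes tested the median was 0.01, and 48.4% were lower in replicate 2 by any amount.

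Actl6b had the lowest ratio of the members at -2.18 (interval -2.39 to -1.99), 4.52-fold lower in replicate 2. Dpf3 followed at -0.99 (-1.29 to -0.72), Dpf1 at -0.91 (-1.03 to -0.79) and Ss18l1 at -0.54 (-0.66 to -0.42). Ss18 was the highest at 0.40 (0.35 to 0.45), then Phf10 at 0.27, Actl6a at 0.18 and Dpf2 at 0.06. Smarca4 at -0.16 and Smarca2 at -0.01 (-0.13 to 0.12) lay between the groups. On deposited TPM Smarca2 turned to 0.27, above Actl6a (0.23) and Dpf2 (0.07), and so no longer lay between them. Of the 10 members, 1 (Actl6b) was at least 2-fold lower in replicate 2, against 3.48% of all genes tested, and 0 were at least 2-fold higher, against 0.862%. Only 29 of the 14385 genes (0.202%) had a ratio as low as that of Actl6b. The absolute ratio was under 0.21 for 50% of all genes, under 0.68 for 90% and under 0.95 for 95%. Dpf1 and Dpf3 were thus near the outer 5% of this spread. The neuronal subunit Ss18l1, the progenitor subunits and the ATPases were inside the 90% limit.

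The directions depended on the scaling. Spike-in counts were 2429972 in replicate 1 and 1303973 in replicate 2, and scaling by them raised the median of all genes by 0.80. On that scale 1 of the 10 members, Actl6b, was at least 2-fold lower, against 0.507% of all genes. Ss18 (1.21) and Phf10 (1.08), 2 of the 10, were at least 2-fold higher, against 26% of all genes. Actl6b (-1.38), Dpf3 (-0.19) and Dpf1 (-0.10) remained lower in replicate 2, while Ss18l1 became higher (0.27). Relative to the median of all genes on the same scale, 0.82, the 4 neuronal subunits were below it and the 4 progenitor subunits above it. Spike-in scaling moved all genes by nearly the same amount, so this placement repeats the TMM result and adds no support. The ratios of paralogs within a library do not depend on this scaling.

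**Figure D3:**
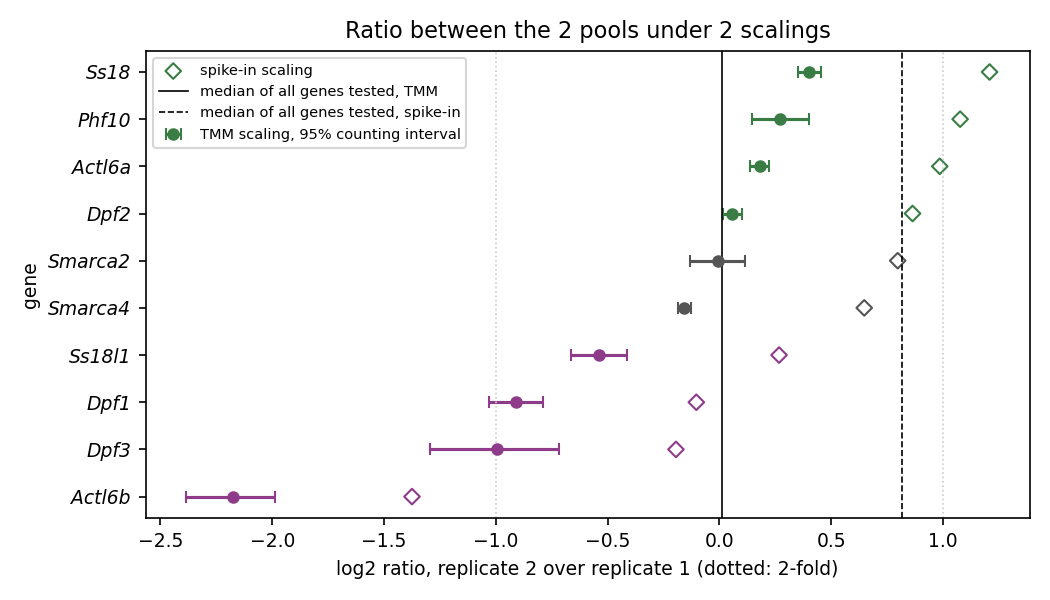
Log2 ratio of replicate 2 over replicate 1 for each member, with filled points for TMM scaling and its 95% counting interval and open diamonds for spike-in scaling. The neuronal members lie to the left of the median of all genes under TMM (0.01). The same placement under spike-in scaling (0.82) follows from it, since that scaling moves all genes nearly alike. Actl6b at -2.18 is the only member past the dotted 2-fold line under TMM.

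Markers of neurons differed between the pools in the same direction. All 14 neuron markers, among them the tubulin Tubb3, were lower in replicate 2, 7 of them at least 2-fold (against 3.48% of all genes tested), with a median ratio of -0.95 and a range from -1.71 to -0.15. Summed over the list, the level was 2488 TPM (replicate 1) and 1607 TPM (replicate 2), and none was at 0. In bulk tissue, fewer neurons and less of this RNA per neuron cannot be told apart. All 10 cell cycle markers were higher in replicate 2 (median 0.39), with sums of 1725 and 2339 TPM. Of the 12 progenitor markers, 9 were lower (median -0.17), against 48.4% of all genes tested. A counting interval below 0 was found for 7 of them, a share not computed for all genes. The sums of the progenitor markers were 2617 and 2180 TPM. Under spike-in scaling 8 of the 14 neuron markers (median -0.15) and 0 of the 12 progenitor markers were lower. The median of all genes on that scale was 0.82. The share of all genes lower on it was not computed, so the 0 of 12 gives no result about progenitor markers.

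Other marker lists differed between the pools too. All 4 macrophage markers (median -0.63), 5 of 6 tested hindbrain position genes (median -0.42) and 8 of 9 mesenchyme markers (median -0.25, Col1a1 at -0.97) were lower in replicate 2. Of all genes tested, 48.4% were lower by any amount. The neural crest markers Sox10 and Erbb3 were 3.04-fold and 2.71-fold higher, and Tfap2a was lower (-1.11). Under spike-in scaling 0 of the 4 macrophage markers, 1 of the 6 position genes and 1 of the 9 mesenchyme markers were lower. These counts have no share of all genes beside them, and the median of all genes on that scale was 0.82. The part of these differences in the subunit ratios was not tested.

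Set against the neuron marker sum, the neuronal subunits differed among themselves. Actl6b amounted to 1.47% of that sum in replicate 1 and 0.493% in replicate 2, and its ratio between the pools was lower than that of each of the 14 markers. Dpf1 amounted to 1.91% and 1.46% and Dpf3 to 0.336% and 0.280%, and 7 of the 14 markers had lower ratios than either gene. Ss18l1 amounted to 0.473% and 0.527%, with 11 of the 14 markers below it. The part of neuron content in the subunit ratios was not tested beyond these values.

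**Figure D4:**
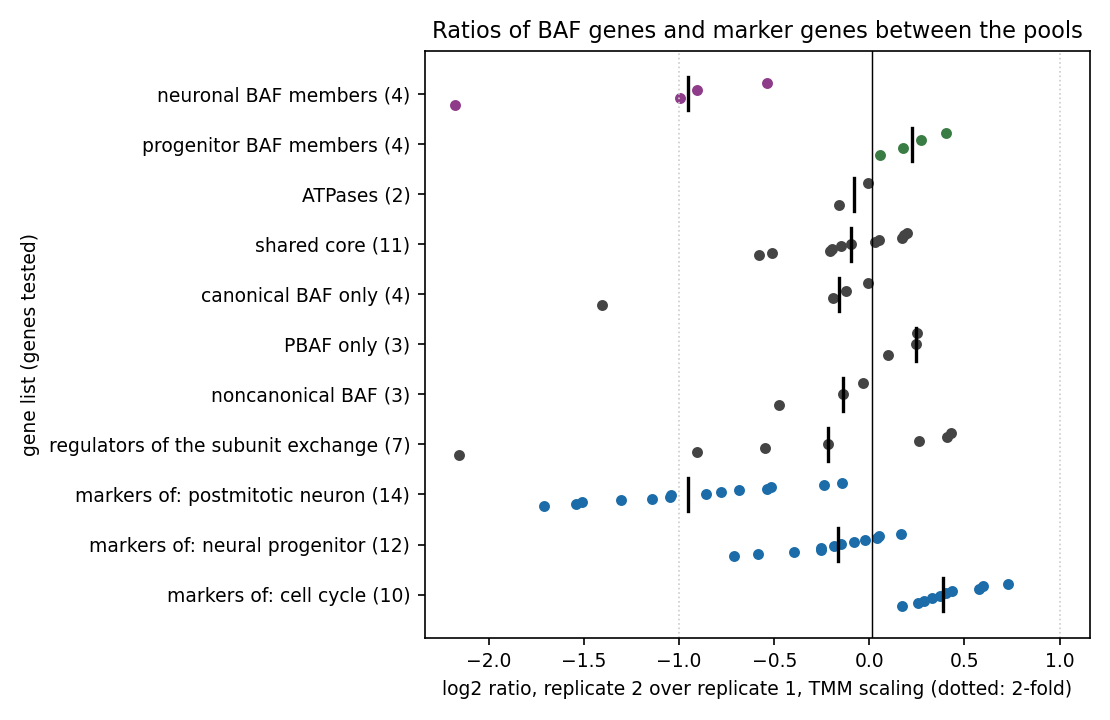
Log2 ratio of replicate 2 over replicate 1 under TMM scaling, with 1 point per tested gene, a black bar at the median of each list and a vertical line at the median of all genes. The neuronal BAF members and the neuron markers have medians of -0.95, the progenitor BAF members a median of 0.23 and the cell cycle markers a median of 0.39. Under spike-in scaling (not drawn) 3 of the 4 neuronal members and 8 of the 14 neuron markers remain lower. The median of all genes is 0.82 on that scale, and the share of all genes lower on it was not computed.

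The promoters of the 3 neuronal members with the lowest ratios between the pools (TMM scaling) are shown. Ss18l1, also lower in replicate 2 (-0.54), is not shown. With 1 library on each side, a shared pattern of these genes cannot be measured. Each line gives the 250 bases before the start of the gene in RefSeq (GRCm38.p6), read 5′ to 3′ on the strand of the gene. GENCODE M21 begins Actl6b at 137553517 and Dpf1 at 29303951, so the last bases of both windows lie inside the GENCODE genes. The windows are chr5:137553296-137553545 on the plus strand for Actl6b, chr7:29303755-29304004 on the plus strand for Dpf1 and chr12:83487737-83487986 on the minus strand for Dpf3. Capitals mark the E-box CANNTG, the motif of proneural basic helix-loop-helix factors, and the CCAAT box CCAAT, each searched on both strands.
Actl6b: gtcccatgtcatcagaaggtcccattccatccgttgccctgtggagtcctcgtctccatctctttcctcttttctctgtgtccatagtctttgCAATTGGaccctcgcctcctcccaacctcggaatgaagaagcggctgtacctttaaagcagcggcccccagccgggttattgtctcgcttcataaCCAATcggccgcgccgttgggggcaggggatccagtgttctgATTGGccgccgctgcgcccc
Dpf1: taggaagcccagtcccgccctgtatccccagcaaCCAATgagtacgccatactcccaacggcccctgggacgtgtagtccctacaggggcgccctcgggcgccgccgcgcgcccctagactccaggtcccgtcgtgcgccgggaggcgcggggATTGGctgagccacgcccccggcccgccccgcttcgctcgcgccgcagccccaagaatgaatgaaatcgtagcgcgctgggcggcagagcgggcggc
Dpf3: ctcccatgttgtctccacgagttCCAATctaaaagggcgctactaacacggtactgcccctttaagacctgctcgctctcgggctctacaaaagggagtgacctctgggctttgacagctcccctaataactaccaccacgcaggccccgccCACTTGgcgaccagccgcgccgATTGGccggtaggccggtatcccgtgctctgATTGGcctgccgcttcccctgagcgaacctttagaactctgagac
Actl6b had CCAAT matches that begin 155, 62 and 20 bases before the RefSeq start, the first of which overlaps its single E-box match at 157. The match at 20 lies inside the gene as GENCODE draws it. Dpf1 had CCAAT matches at 216 and 97 bases before the start and no E-box match. Dpf3 had CCAAT matches at 227, 76 and 45 and an E-box match at 98. Promoters of 300 bases, which also hold the first 50 bases after the RefSeq start, were searched for 9 members. Ss18 was left out of this search. CCAAT was found in 4 of these 9 (the 3 genes above and Dpf2), against 37.4% of all 32851 promoters of this length. E-box matches were found in 6 of 9, against 72.3%, and the GC box GGGCGG in 8 of 9, against 35.7%. A match describes the letters of this window and is not a binding site.

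The other BAF subunits listed were all present, with 21 of 21 detected. This list also holds paralogs, among them Smarcc1 (ratio 0.20) and Smarcc2 (-0.51), and Smarcd1 (-0.20), Smarcd2 (0.17) and Smarcd3 (-0.58). By ratios of any size 13 were lower and 8 higher in replicate 2, with a median of -0.10, and 48.4% of all genes tested were lower. The counting interval lay below 0 for 10 and above 0 for 7. The share of all genes with such intervals was not computed, so these counts give no result about the list. The list of core subunits, not all of which are in the noncanonical complex, ran from the actin Actb (5533.93 and 6011.89 TPM), which is also a cytoskeletal protein, down to Smarcd2 (19.96 and 23.39 TPM). Past 2-fold was 1 of the 21, which is near the 3.48% of all genes tested that were as much lower. This was Bcl11a, a zinc finger subunit of the canonical complex, also the highest of its list by mean level, at 43.76 and 17.40 TPM with a ratio of -1.41. Its relative Bcl11b was the lowest of that list at 2.64 and 2.55 TPM. All 3 subunits found only in PBAF were higher in replicate 2 (0.10 to 0.25), with Pbrm1 the highest at 103.05 and 123.58 TPM and Arid2 the lowest at 20.44 and 23.13 TPM. Of the 3 subunits of the noncanonical complex, 2 had a counting interval below 0, Bicra at -0.47 and Brd9, the highest of the list, at -0.14 (38.49 and 36.52 TPM). Among all genes, Bicra lay inside the 90% limit of the absolute ratio (0.68) and Brd9 inside the 50% limit (0.21). Bicral, the lowest, was at 2.72 and 2.78 TPM with a ratio of -0.03 (-0.22 to 0.16). Under spike-in scaling 1 of the 21, Bcl11a, was lower in replicate 2. The median of all genes on that scale was 0.82 and the share of all genes lower was not computed, so this count gives no result about the list.

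The regulators of the exchange moved in both directions. Rest, the repressor of neuronal genes, was at 13.69 and 19.28 TPM (ratio 0.43) and its corepressor Rcor1 at 4.01 and 5.58 TPM. Ptbp1, the splicing repressor of progenitors, was the highest of the list at 230.47 and 286.05 TPM. Its neuronal relative Ptbp2 was at 138.35 and 124.35 TPM. The only regulator past 2-fold, of 7 tested, was the host transcript of one miR-9 gene, Mir9-3hg. It was at 64.26 and 13.72 TPM (ratio -2.15, interval -2.30 to -2.02). Of all genes tested, 3.48% were at least 2-fold lower in replicate 2. This host transcript and Actl6b therefore had ratios of similar size, both higher in replicate 1. The likeness was picked out after the values were seen, and a link between them was not tested. The miR-124 host Mir124a-1hg was at 35.08 and 18.16 TPM. C130071C03Rik, which holds a second miR-9 gene, was at 18 and 13.87 TPM. A330008L17Rik stayed under 1 TPM (0.17 and 0.11). The hairpin genes Mir9-2, Mir9-3, Mir124a-1, Mir124a-2 and Mir124a-3 were listed at 0 in both libraries, with effective lengths of 0 or 10 bases after the correction for read length, so these zeros say nothing of the microRNAs. Of the 13 listed regulators 7 were tested, with 4 lower and 3 higher and a median of -0.22, while 48.4% of all genes tested were lower.

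The transcript tables divided the 10 genes into 73 annotated transcripts. Reads are shared between transcripts of a gene, so these shares are estimates of the quantification. Smarca4 was nearly all full-length RNA: Smarca4-204 held 69.6% and 68.7% of its TPM and Smarca4-202 28.3% and 31.1%. Transcripts with a coding sequence of at least 4000 bases made up 99.2% and 99.8% of the gene.

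Smarca2 had a different composition. Its largest transcript was Smarca2-215, annotated for nonsense-mediated decay (the route that removes RNAs with an early stop), with 37.3% and 43.9% of the TPM. Short transcripts followed, Smarca2-205 with 13.7% and 14.2%, Smarca2-203 with 11.3% and 9.04% and Smarca2-210 with 4.60% and 11.7%. Smarca2-201, the longest of those named, held 11.3% and 6.53%. Transcripts with a coding sequence of at least 4000 bases came to 3.08 TPM (replicate 1) and 2.19 TPM (replicate 2), or 12.8% and 7.53% of the gene. This class includes Smarca2-202, annotated for decay, at 0.34 and 0.29 TPM. Because these RNAs are long, they held a larger part of the counts, 42.7% and 29.1%. The same class of Smarca4 was at 137.26 and 128.86 TPM, so the log2 ratio of the ATPases fell from -2.33 over all transcripts to -5.62 over this class, a limit chosen after the values had been seen. Classes and coding lengths come from GENCODE M21, whose models of Smarca2 differ from the deposited ones. Of the 12 member transcripts with another length there, 10 belong to Smarca2, among them Smarca2-215 (1460 bases in the deposited tables, 2018 in M21), and 2 to Ss18. The classes given for Smarca2 are therefore uncertain.

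The other progenitor genes differed in how much of their RNA could encode a full protein. Actl6a-201 held 83.6% and 84.7% of Actl6a. Dpf2 was divided between the protein-coding Dpf2-202, with 40.3% and 41.0%, and Dpf2-201, annotated for nonsense-mediated decay, with 35.3% and 38.4%. Of the complete coding transcripts of Dpf2, Dpf2-202 contains a 42-base coding exon, the exon 7 of 12, which is shown because it separates the 2 forms. It lies at chr19:5903731-5903772 on the minus strand of mm10 (GENCODE M21).
Dpf2 exon 7: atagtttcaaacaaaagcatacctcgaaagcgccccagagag
Dpf2-205, which lacks it, held 4.44% and 4.86%, so the form with the exon was the more abundant in both libraries. For Ss18, the form without a 93-base exon, Ss18-203, held 87.2% and 86.8%, and the forms with it 12.8% and 13.2%. Phf10-201, the only protein-coding transcript of Phf10, held 59.1% and 46.7%. The decay transcript Phf10-203 held 21.2% and 20.3%, the retained introns Phf10-205 10.2% and 17.3%, and Phf10-204 9.43% and 15.7%. Shares of the counts differed, since these retained introns are short. Phf10-201 held 51.2% and 44.8% of the counts and Phf10-203 44.6% and 47.3%. Phf10-205 held 1.93% and 3.63% of them, and Phf10-204 2.26% and 4.20%.

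Among the neuronal genes, Actl6b-205 held 76.9% and 84.7% of Actl6b, and the retained intron Actl6b-206 held 8.57% and 12.6%. Actl6b-206 is short and rested on only 25.95 and 7.44 counts. Ss18l1 has 1 annotated transcript in the tables. Dpf1-201 held 43.4% and 48.0% of Dpf1, with the short and incomplete Dpf1-209 (21.97% and 13.0%) and Dpf1-207 (15.3% and 17.8%) after it. By counts Dpf1-201 held 73.1% and 71.6%, Dpf1-209 5.68% and 2.97%, and Dpf1-207 3.84% and 3.96%. Dpf3 had the least settled composition, from 316 and 148 counts in all. Its first transcript was Dpf3-203 in replicate 1 (54.9% against 30.5% in replicate 2), while Dpf3-202, at 20.4% and 30.7%, was first by a narrow margin in replicate 2. Dpf3-202 rested on 22.47 and 16.35 counts. The others were Dpf3-207 at 18.8% and 20.5% and Dpf3-206 at 5.99% and 18.3%. By TPM, Dpf3 was the only one of the 10 genes whose leading transcript differed between the libraries.

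**Figure D5:**
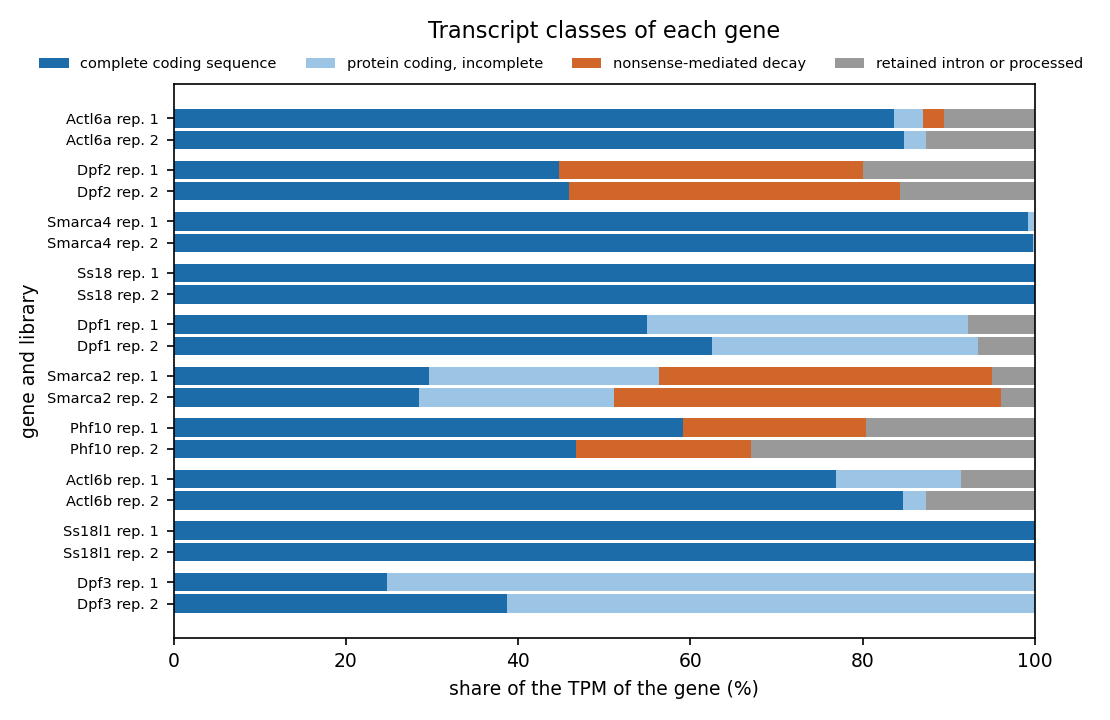
Share of the TPM of each gene (%) in 4 classes of transcript as annotated in GENCODE M21, with 1 bar per library and genes in order of mean level. Transcripts with a complete coding sequence fill 99.2% or more of Smarca4 and all of Ss18 and Ss18l1, but 29.6% and 28.5% of Smarca2, where nonsense-mediated decay transcripts hold 38.7% and 44.9%.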

How the data were processed

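Total RNA-seq of 1 group of 2 libraries was used. Per the file headers, the deposited gene and transcript tables hold an expected count (reads divided between the transcripts they fit), TPM and a posterior mean TPM. The labels name assembly mm10; names of the aligner and quantification program were not given in the sources used here. GENCODE M21 supplied symbols by unversioned identifier (42462 of 43346 annotated genes, all 10 members), and all 73 member transcripts matched, 61 with the same length; 10 of the other 12 are of Smarca2.

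Expected counts were rounded to whole numbers. The ratio between pools was taken as the log2 of CPM in replicate 2 over replicate 1 with TMM scaling (edgeR 4.0.16, R 4.3.3) and a prior count of 2, over genes with a CPM of at least 1 in both libraries; exact (Clopper-Pearson) 95% intervals cover counting error only. Library sizes left out spike-ins and tRNAs. Ratios of paralogs used log2(TPM + 0.1), which understates ratios of low genes. With 1 group, no test or p-value was possible. The ratio script was tested on simulated data. Members and lists were chosen with earlier results of these data known. All 10 members were named, with transcripts of at least 10% of the TPM of their gene. Of the other BAF and regulator lists, the highest and lowest gene, those past 2-fold and those under 1 TPM were named; Bicra, Rest, Rcor1, Ptbp2 and the other host transcripts were added after their values were seen.

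Alternatives were posterior mean TPM, counts without length correction, protein-coding transcripts only, a pseudocount of 1 TPM, DESeq2 1.42.0 size factors, total count, spike-in scaling, prior counts of 0.5 and 5, no filter on low values, other detection limits, TPM of annotated genes only and each library left out. Python 3.11.15, pandas 2.3.3, numpy 2.4.6 and matplotlib 3.10.9 were used.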

Additional observations from a re-analysis of the deposited data

How the results depend on the processing

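No paired analysis was possible because the series has only 1 group. Spike-in scaling moved the ratio between the pools to -1.38 for Actl6b, -0.19 for Dpf3, -0.10 for Dpf1, 0.86 for Dpf2, 0.99 for Actl6a, 1.08 for Phf10 and 1.21 for Ss18. It reversed Ss18l1 (0.27), Smarca4 (0.65) and Smarca2 (0.80). Deposited TPM, which is also corrected for length, gave 0.23 for Actl6a, 0.49 for Phf10, 0.47 for Ss18 and -0.10 for Smarca4, and reversed Smarca2 (0.27). Genes at least 2-fold lower and higher numbered 73 and 3745 under spike-in scaling and 1775 and 1482 with no filter. DESeq2 size factors, total count and prior counts of 0.5 and 5 left all 10 members within their counting intervals.

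Over protein-coding transcripts only, Dpf1 over Dpf2 was -1.30, Dpf3 over Dpf2 was -3.62 and Smarca2 over Smarca4 was -3.22. Dpf1 over Phf10 was 1.32 there, with Dpf1 the higher gene in both libraries. Over complete coding sequences, a limit chosen after seeing the data, Dpf1 over Phf10 was 0.66, and in counts without length correction it was 0.21. Smarca2 over Smarca4 was -4.14 in counts without length correction. Under limits chosen after seeing the data it was -4.09 (complete coding sequence), -3.02 (at least 1000 bases) and -5.62 (coding sequence of at least 4000 bases). With each library left out, the ratios ranged from -4.84 to -2.42 (Actl6b over Actl6a), -0.25 to 1.26 (Dpf1 over Phf10, which reversed without replicate 1), -2.60 to -1.24 (Dpf3 over Phf10), -2.88 to -1.79 (Dpf1 over Dpf2), -5.23 to -4.29 (Dpf3 over Dpf2), -3.57 to -2.63 (Ss18l1 over Ss18) and -2.51 to -2.15 (Smarca2 over Smarca4). Detection of the 10 members in each library alone followed from the rule, which asked for 1 TPM in both. The causes were not tested. Counts limit Dpf3 and Actl6b most, at 148 and 253 in replicate 2.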
